A study of Mus musculus with 2 samples.

Results

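The hemoglobin and erythroid genes described here were 8 mouse genes chosen by name: the adult alpha globin genes Hba-a1 and Hba-a2, the adult beta globin genes Hbb-bs, Hbb-bt, Hbb-b1 and Hbb-b2, Alas2 and Slc4a1. Their probes were found on the array by the RefSeq accession each probe carries, which gave 8 probes for 7 of the 8 genes, among 56593 gene probes and 22909 named genes. No probe was matched to Hbb-bs. The genes were proposed after results of these arrays were known, so that their lower signal in 1 genotype is part of how they were picked, and every ratio below is a description.

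Gene expression was measured in whole colon of 8-week-old C57BL/6 mice of 2 genotypes on 1-colour (Cy3) Agilent mouse arrays, with 1 array per genotype. The control was Villin-Cre, which carries Cre recombinase under the promoter of villin, a gene of the intestinal epithelium. The other genotype, Villin-Cre; EP4flox/flox (EP4 cKO), carries the same Cre and floxed alleles of Ptger4, the gene of the prostaglandin E2 receptor EP4, so that the deletion is directed at the epithelium and not at blood or bone marrow. By the labels, the RNA on each array came from 3 pools of colon. No spread between mice can be given, no test was made, and each value describes these arrays.

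Both arrays lay on the same slide and had no saturated spot. The scanner software marked 25683 probes of the Villin-Cre array and 29177 of the EP4 cKO array as well above background. The main probe of Ptger4 had normalized signals of 6227 and 5661, and the dimmer Ptger4 probe had 393 and 592, so the targeted gene was not clearly lower where the label says EP4 cKO. The paper reports deletion of EP4 by qRT-PCR in isolated colonic epithelium, and describes EP4 in lamina propria cells as well. The arrays measured whole colon. Whether either probe lies in the floxed part was not tested, and the arrays are called by their labels throughout. The tissue label was matched by its markers: all 12 genes of a colonic epithelium list, among them Vil1, Krt8 and Cdx1, were well above background on both arrays.

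Hemoglobin, the oxygen carrier of red cells, is a tetramer of alpha and beta globin chains, each holding a heme group. Globin RNA is made in erythroblasts of the bone marrow and spleen and is still held by reticulocytes, the young red cells that circulate after the nucleus is lost. Alas2 makes the first enzyme of heme synthesis in erythroid cells, and Slc4a1 encodes band 3, the anion exchanger of the red cell membrane. In a solid organ such as colon, globin RNA is usually read as RNA of the blood in the vessels, although low globin expression has been described in other cell types.

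Adult globin genes share promoter elements that are textbook sites of erythroid and general factors: elements bound by GATA factors, boxes bound by KLF1 and boxes bound by NF-Y. The windows below are shown because they let a reader see how alike the gene copies are and where such letters stand. The 250 bases before the annotated start were taken from RefSeq (GRCm38.p6), which held 5 of the 8 genes (Hba-a1, Hba-a2, Hbb-bs, Hbb-bt and Alas2). They are written 5′ to 3′ along the gene, with 3 motifs of either strand in capitals: GATAA (the GATA core), then CACCC (the KLF-type box), and finally CCAAT (the NF-Y-type box).
Hba-a1, chr11:32283422-32283671, plus strand: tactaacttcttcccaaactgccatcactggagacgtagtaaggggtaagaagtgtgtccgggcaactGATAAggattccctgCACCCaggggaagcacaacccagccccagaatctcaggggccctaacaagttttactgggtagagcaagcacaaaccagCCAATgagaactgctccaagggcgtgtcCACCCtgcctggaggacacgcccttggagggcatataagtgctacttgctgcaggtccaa
Hbb-bs, chr7:103827929-103828178, minus strand: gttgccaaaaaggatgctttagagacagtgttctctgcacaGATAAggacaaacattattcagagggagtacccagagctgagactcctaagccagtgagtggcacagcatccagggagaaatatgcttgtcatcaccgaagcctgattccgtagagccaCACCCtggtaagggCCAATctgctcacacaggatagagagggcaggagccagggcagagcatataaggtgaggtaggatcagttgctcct
Hbb-bt, chr7:103813924-103814173, minus strand: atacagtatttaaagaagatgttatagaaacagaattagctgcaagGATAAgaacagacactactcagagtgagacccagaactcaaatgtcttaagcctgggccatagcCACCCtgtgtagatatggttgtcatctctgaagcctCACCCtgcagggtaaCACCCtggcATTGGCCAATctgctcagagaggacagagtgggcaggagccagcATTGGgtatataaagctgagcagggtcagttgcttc
Alas2, chrX:150547167-150547416, plus strand: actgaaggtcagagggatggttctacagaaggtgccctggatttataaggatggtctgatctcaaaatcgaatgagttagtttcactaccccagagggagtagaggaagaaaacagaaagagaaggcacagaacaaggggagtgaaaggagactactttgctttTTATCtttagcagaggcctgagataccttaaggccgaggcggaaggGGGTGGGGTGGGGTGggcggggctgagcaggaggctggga

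The Hba-a2 window (chr11:32296242-32296491, plus strand) is not printed because it repeats that of Hba-a1. When the tables' full windows of 300 bases were aligned, the 2 alpha genes were identical over 297 bases, offset by 3. Hbb-bs and Hbb-bt were identical at 226 of 289 aligned bases (78.2%). From the upstream end, Hba-a1, Hba-a2, Hbb-bs and Hbb-bt held the GATA core, the KLF-type box and the NF-Y-type box in the same order. The alpha genes had a further KLF-type box close to the start, and Hbb-bt had further boxes of both types.

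GATAA occurred in 5 of 5 member windows and in 22.6% of the 32851 windows of the same length in the table. The longer form AGATAA, which contains GATAA, occurred in 2 of 5 (Hbb-bs and Alas2) and in 9.99% of all windows. CACCC occurred in 5 of 5 and in 52.0% of all, and CCAAT in 4 of 5 and in 33.9% of all. All 3 motifs stood together in 4 of 5 (not in Alas2) and in 3.45% of all windows. The 5 windows include those of Hba-a1 and Hba-a2, which are near-identical and not separate cases. These are matches of letters on both strands and not shown to be bound. The shorter GATAA was chosen after the sequences were seen.

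**Figure D1:**
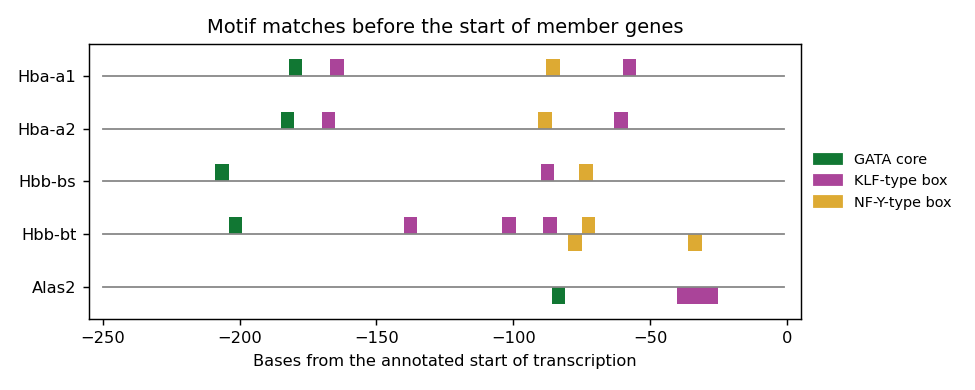
Matches to the GATA core, the KLF-type box and the NF-Y-type box in the 250 bases before the annotated start of 5 member genes (x axis, bases from the start; boxes above a line lie on the gene's strand and boxes below it on the other strand). The GATA core lay between 209 and 178 bases before the start in the globin genes and 86 bases before it in Alas2, and adjoining KLF-type matches of Alas2 merge into 1 box.

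On the arrays, every hemoglobin probe was far lower on the array labelled EP4 cKO than on that labelled Villin-Cre. The 5 hemoglobin probes well above background on both arrays were lower by 18.6- to 32.1-fold, and the sixth by at least 43.8-fold. Alas2 was at least 8.75-fold lower, and Slc4a1 was too dim for a fold. Signals are given as normalized signal, scaled so that the trimmed mean of gene probes is 2500 on each array, and log2 ratios are of EP4 cKO over Villin-Cre. Signals depend on the probe, so the brightest probe of a list, named below by the rule for named genes, says nothing of RNA levels between genes. In bulk tissue, fewer cells of a type and less RNA per cell cannot be told apart.

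The alpha chain probes were spotted 10 times on each array, which gives the error of a spot but not of a mouse. The brighter Hba-a1 probe (A_51_P169730) had a normalized signal of 112282 ± 3708 (SD, 10 spots) in Villin-Cre and 4216 ± 116 in EP4 cKO. Its spots ranged from 107177 to 121048 (median 111675) in Villin-Cre and from 4050 to 4475 (median 4215) in EP4 cKO, and the ranges did not overlap. The log2 ratio was -4.74, with single spots between -4.81 and -4.70, or 26.6-fold lower.

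The dimmer Hba-a1 probe (A_55_P1962303) had 26201 ± 573 (SD, 8 of 10 spots) in Villin-Cre and 1409 ± 64.8 in EP4 cKO. Its spots ranged from 25346 to 27183 (median 26135) and from 1346 to 1495 (median 1379). This log2 ratio was -4.22, with single spots between -4.27 and -4.14, or 18.6-fold lower. The spot ratios of the 2 Hba-a1 probes did not overlap, and the brighter probe differed from the dimmer by -0.52 on the log2 scale, so the size of the difference depended on the probe by more than the error of a spot.

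Hba-a2 encodes the same kind of alpha chain from the neighbouring copy. Its probe (A_55_P1962299) had 107146 ± 3706 (SD, 9 of 10 spots) in Villin-Cre and 3936 ± 132 in EP4 cKO. The spots ranged from 100735 to 111649 (median 107425) and from 3662 to 4134 (median 3942), again without overlap. Its log2 ratio of -4.77 (single spots between -4.82 and -4.70, 27.2-fold lower) lay within the spot range of the brighter Hba-a1 probe. In all 27 alpha chain spots used, the array labelled EP4 cKO was lower. Since the 2 genes are near-identical copies and probe sequences were not used here, whether each probe reads 1 gene or both was not tested.

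The beta chain probes had 1 spot each, and their errors are those that the scanner software gives for a spot. Hbb-bt, an adult beta globin gene of the C57BL/6 haplotype, had 19535 ± 1954 in Villin-Cre and 608 ± 62.3 in EP4 cKO, a log2 ratio of -5.01 or 32.1-fold lower. Hbb-b2 had 5832 ± 584 and 241 ± 27.4, a log2 ratio of -4.59 or 24.1-fold lower. Hbb-b1 had 2534 ± 255 in Villin-Cre and 42.9 ± 14.2 in EP4 cKO, where it was not well above background. The spot in the array labelled Villin-Cre was the higher of the pair at each of these 3 probes, by far more than the software's error.

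For a probe that was dim on 1 array, the dim side was held at the floor, the lowest signal among probes well above background on that array (125 for Villin-Cre and 57.8 for EP4 cKO), or at its own signal if higher. This gave Hbb-b1 a bound of at least 43.8-fold lower (log2 ratio -5.45). Its size depended on the processing, with log2 ratios of -3.21 with normexp and quantile normalization and -4.42 with scaling to the E1A control spots. Alas2, described below, had -1.30 and -2.09 under the same alternatives. Hbb-b1 and Hbb-b2 are the names of the adult beta genes in the haplotype of other strains, and C57BL/6 mice carry Hbb-bs and Hbb-bt in their place. Whether the Hbb-b1 and Hbb-b2 probes read RNA of Hbb-bs or Hbb-bt was not tested.

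The remaining members are not globins. Alas2 had 506 ± 59.6 in Villin-Cre and 13.9 ± 13.96 in EP4 cKO, where its error was as large as its signal, so that the 8.75-fold is a bound (log2 ratio -3.13). Slc4a1 had 45.2 ± 31.6 and 33.5 ± 14.3, under the floor of each array, and no fold is given. In all, 7 of 8 member probes passed the requirement of being well above background on at least 1 array, 5 on both and 2 in Villin-Cre only.

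**Figure D2:**
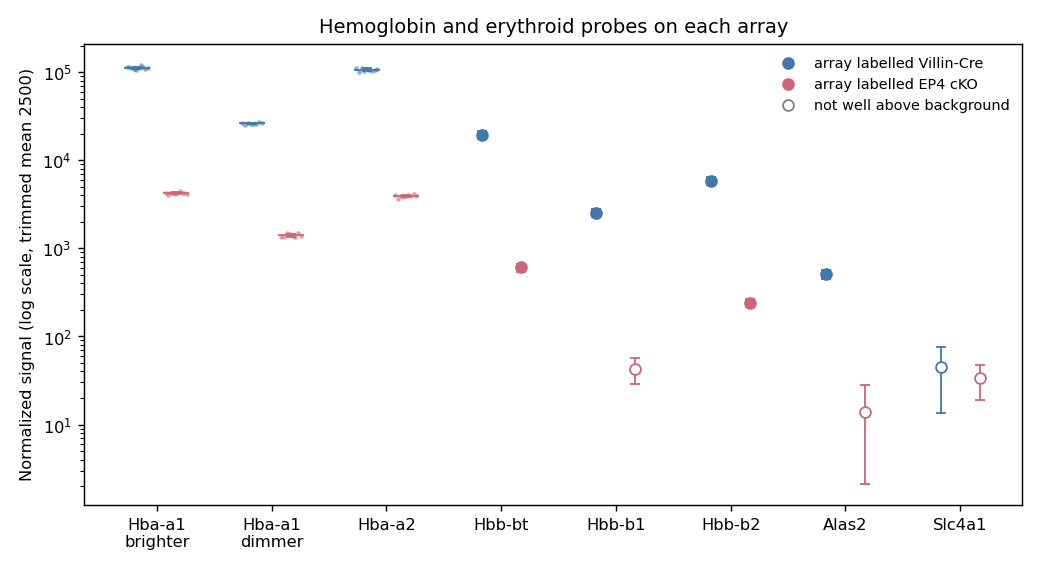
Normalized signal (log axis) of the 8 member probes on the array labelled Villin-Cre (blue) and the array labelled EP4 cKO (red). For the 3 alpha chain probes, dots are spots and the bar and whiskers their mean and SD; for the others the whiskers are the software's error of 1 spot, and open symbols were not well above background. The hemoglobin and Alas2 symbols of the arrays are far apart, and those of Slc4a1 overlap within their errors.

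All 7 member probes with a value were more than 2-fold lower and 0 were higher. Over all 30126 probes with a value, 8.58% were more than 2-fold lower and 3.99% more than 2-fold higher. Of the 24734 measured on both arrays, as were 5 of the member probes, 6.61% were lower and 3.18% higher. Nothing is read from this difference, since the members were picked from the same contrast. More than 16-fold lower, a threshold set after the values were seen, were 102 probes (0.339%), the 6 hemoglobin probes among them. Ranked from the lowest ratio among the probes measured on both arrays, Hbb-bt stood at place 4, Hba-a2 at 5, the Hba-a1 probes at 7 and 19, and Hbb-b2 at 9. Hbb-b1 and Alas2 have bounds and get no place.

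The split between lower and higher depended on scaling, but that of the members did not. Lower and higher probes numbered 2584 and 1203 as reported, 2051 and 1594 with scaling to the 75th percentile, 2125 and 1532 with a trimmed mean over all spots, 754 and 938 with normexp and quantile normalization, 1387 and 2121 with loess, and 750 and 10780 with scaling to the E1A control spots. The median of all probes measured on both arrays was -0.19 and moved up by 0.13 to 1.04 under these scalings. Relative to it, the member median lay at -4.55 as reported. Scaling each array by a single factor shifts all ratios alike and cannot change this distance. Of the alternatives listed here, only normexp with quantile normalization (-3.94) and loess (-4.70) could change it.

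**Figure D3:**
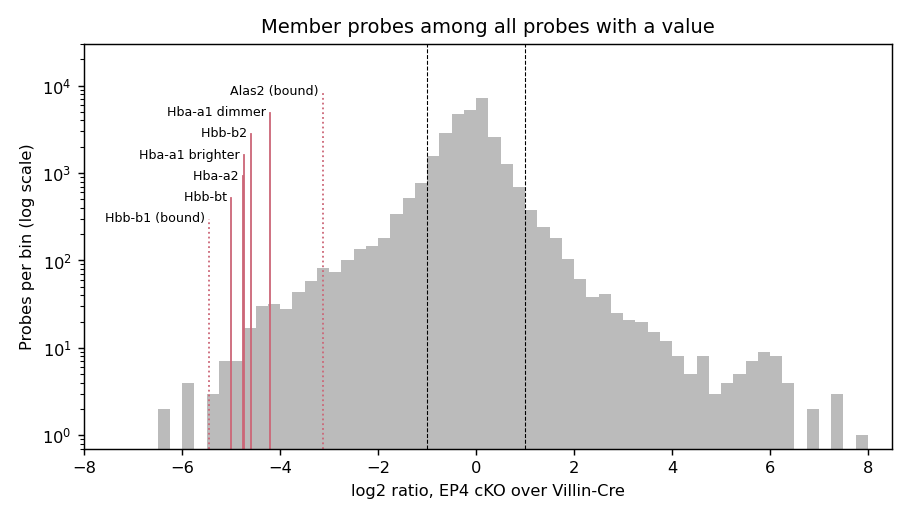
Distribution of the log2 ratio of EP4 cKO over Villin-Cre (x axis) over the 30126 probes with a value, as probes per bin on a log axis, with member probes marked by lines (dotted where the value is a bound) and the 2-fold thresholds dashed. The 6 hemoglobin lines lie between -5.45 and -4.22, in the lower tail where bins hold few probes.

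**Figure D4:**
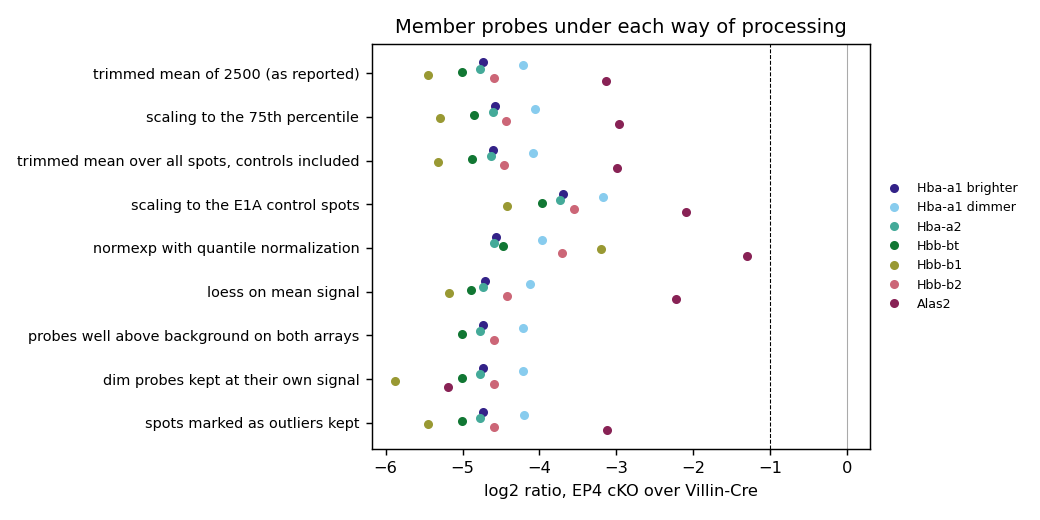
Log2 ratio of EP4 cKO over Villin-Cre (x axis) of the 7 member probes with a value under the reported processing and 8 alternatives (rows); the dashed line marks 2-fold lower. Every point lies to the left of that line, with hemoglobin probes between -5.88 (Hbb-b1 at a signal not well above background) and -3.18, and Alas2 comes closest to it with normexp, at -1.30.

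The other genes of the red cell program either had ratios closer to even or were too dim for a fold. Over 14679 genes with a value, each given by its brightest probe, 7.98% were more than 2-fold lower, 4.88% were more than 2-fold higher, and the median log2 ratio was -0.10. In list medians over all genes with a value, a gene dim in Villin-Cre whose signal in EP4 cKO lay under the floor of Villin-Cre counts as 0. The related lists were also drawn up with results of these arrays known. Among the embryonic and minor globins, Hba-x, Hbb-y, Hbb-bh1, Hbq1a and Hbq1b were not well above background in either genotype, with signals between 11.9 and 62.3. Hbb-bh2 was so in EP4 cKO only (56.1 and 113), below the floor of Villin-Cre, and no fold is given. No probe was matched to Hbb-bh0 or to Ahsp, the chaperone of free alpha globin.

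Globins of other tissues were measured in 2 of 3 genes. Cygb, the cytoglobin of fibroblasts and related cells, had 248 and 108 (log2 ratio -1.20), and Mb, the myoglobin of muscle, had 196 and 16.4, at least 3.39-fold lower. Both are dim genes, and with normexp and quantile normalization their log2 ratios were -0.47 and -0.51, within 2-fold. Ngb, the neuroglobin of nerve cells, was dim on both arrays (31.5 and 14.03).

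Of 18 red cell membrane and skeleton genes, 4 were measured on both arrays, of which 0 were more than 2-fold lower and 0 higher, and 4 others were well above background in EP4 cKO only. Ank1, Sptb, Epb42, Rhag and Kel, which encode ankyrin, beta spectrin, protein 4.2, the Rh-associated glycoprotein and the Kell antigen, were not well above background in either genotype. The 4 genes measured on both arrays, which other cells also express, had a median log2 ratio of -0.41: Epb41 was the brightest (15694 and 17064), and the water channel Aqp1 had 7047 and 4918.

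All 12 genes of heme synthesis and heme transport had a value, with a median log2 ratio of -0.23, and 1 was more than 2-fold lower. This was Slc25a37, the mitochondrial iron importer mitoferrin 1, with 4834 and 2283 (log2 ratio -1.08, and -0.93 with scaling to the 75th percentile). Alas1, which makes the first enzyme of heme synthesis in all tissues, was the brightest of the list, with 44633 and 53451 (log2 ratio 0.26), while its erythroid counterpart Alas2 was at least 8.75-fold lower. The difference between these values was not tested. The enzymes Alad, Uros, Urod, Cpox, Ppox and Fech lay between -0.63 and 0.05, although a dimmer Ppox probe had a log2 ratio of -2.13.

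Of 11 erythroid transcription factors, 5 were measured on both arrays and none of these was past 2-fold. A further 3 (Klf1, Gfi1b and Nfe2) were well above background in EP4 cKO only, where the floor of Villin-Cre sets what can be seen. Gata1, the master regulator of erythroid cells, had 31.6 and 14.7, and Tal1 and Lmo2, its partners, were likewise not well above background in either genotype. Klf1, the factor of the beta globin CACCC box, had 69.8 and 100, below that floor in both genotypes, and no fold is given. Of those measured on both arrays (median log2 ratio -0.33), Klf3, a family member of many tissues, was the brightest (46118 and 49632), and the cofactor Ldb1 was the lowest (-0.90).

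Of 16 genes of red cell maturation, 12 had a value, with a median log2 ratio of -0.29, and 2 were more than 2-fold lower. Of these, Sox6, a factor of globin switching and of many other tissues, had 595 and 146 (log2 ratio -2.03, and -0.99 with normexp). Epor, the erythropoietin receptor, had 32.8 and 192 and was measured in EP4 cKO only, with a bound of 0.61. Hemgn had 50796 and 30228 (log2 ratio -0.75).

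The carbonic anhydrases of red cells, Car1 and Car2, are also made by colonocytes and were bright on both arrays, with 105597 and 78868 for Car1 and 95253 and 121431 for Car2 (log2 ratios -0.42 and 0.35). Tfrc, the transferrin receptor of iron uptake, had 4748 and 6358 (log2 ratio 0.42). These values lay within 2-fold.

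Of 8 genes of hemoglobin and heme clearance, 5 were measured on both arrays and none of these was past 2-fold, with a median log2 ratio of -0.19. Hmox1, the inducible heme oxygenase that breaks heme down, had 463 and 740 (log2 ratio 0.68). The brightest probe was that of Blvrb, a biliverdin reductase, with 6553 and 5702. Cd163, the macrophage receptor for haptoglobin-bound hemoglobin, and Hpx (hemopexin) were not well above background in either genotype.

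Markers of other cells of blood and of vessels are given beside the globins, with no test of a difference from them. Of 12 platelet genes, 4 had a value: Pf4 had 847 and 1800 (log2 ratio 1.09), Gp6 had 351 and 107 (-1.71, and -0.67 with normexp), and the defining Itga2b, Ppbp, Gp5 and Gp9 were not well above background in either genotype. Of 12 neutrophil genes, 6 had a value and 3 were higher in EP4 cKO: Ltf at least 7.51-fold (91.0 and 941), S100a8 at least 2.83-fold (84.9 and 355) and S100a9 2.39-fold (289 and 689). Ltf and S100a8 had a value only through the EP4 cKO array, and the 3 neutrophil genes measured on both arrays had a median log2 ratio of -0.16. Csf3r, the brightest of this list, had 106452 and 81629. Camp, Cxcr2, Mmp8, Mpo and Ngp were not well above background in either genotype. By staining of untreated colon, the paper reports no significant difference in neutrophil numbers. Of 12 endothelial genes, 4 had a value and none was past 2-fold, with a median log2 ratio of -0.25, Vwf at 873 and 914 and Pecam1 at 172 and 152. The summed normalized signal of the lists was 2079 and 2756 for platelets, 109548 and 86014 for neutrophils, and 1939 and 1711 for endothelium. The neutrophil sums were mostly the signal of the Csf3r probe. All sums include probes that were not well above background, so they do not measure amounts of these cells. The part of any of these cells in the hemoglobin values was not tested.

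Of 12 colonic epithelium genes, 1 was more than 2-fold higher, the keratin Krt20 (146575 and 510711, log2 ratio 1.80), none was lower, and the median log2 ratio was 0.08. The brightest was Lgals4, a galectin of the gut, with 801162 and 679445. Of 8 smooth muscle genes, 6 had a value with a median of 0.50: Acta2, the brightest, had 18006 and 27719, and Cnn1 (calponin) had 479 and 72.3 (log2 ratio -2.73, and -1.04 with normexp). Scaled to the E1A control spots, every ratio measured on both arrays is raised by 1.04, and of the genes past 2-fold lower named above from the related lists, each by the probe that stands for it, Cnn1 (-1.69) was still so and the others were not. The members were still so, at -3.70 for the brighter Hba-a1 probe and -2.09 for Alas2.

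**Figure D5:**
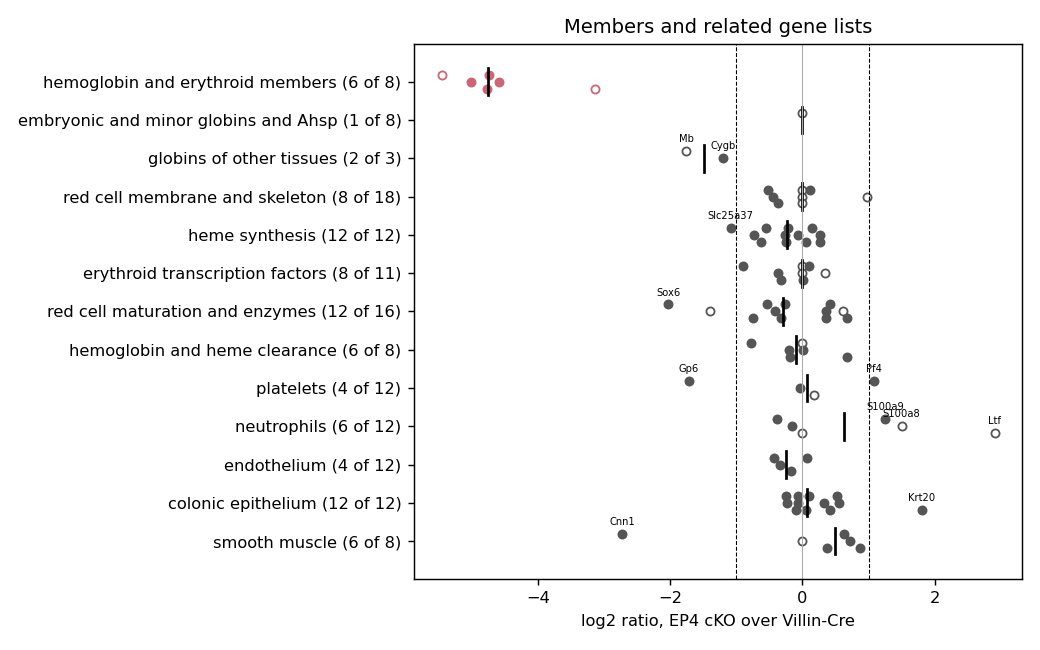
Log2 ratio of EP4 cKO over Villin-Cre (x axis) of each gene with a value in the member list (red) and 12 related lists (grey), with the number of genes with a value of those listed; open symbols are bounds, black bars list medians and dashed lines 2-fold. The members lie between -5.45 and -3.13, and every gene of the other lists lies between -2.73 and 2.91.

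The genes with values most like those of the brighter Hba-a1 probe were sought among 12804 genes well above background on both arrays, by the distance between log2 signals over the 2 arrays. The nearest outside the members were Hspa1a, an inducible heat shock protein (39625 and 3713, distance 1.51), Cyp2c55, a cytochrome P450 of the colon (42911 and 2412, distance 1.60), Hao2 (39259 and 8186, distance 1.79), Tppp3 (54565 and 12325, distance 1.87) and Sun2 (44409 and 13434, distance 2.14). Their log2 ratios were -3.42, -4.15, -2.26, -2.15 and -1.72. The distance sets signals of different probes side by side, so it depends on the probe chosen, and nothing is read from the order of these genes.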

How the data were processed

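RNA of whole colon was measured on 2 arrays, 1 per genotype, with groups taken from the labels. The authors deposited scanner intensities, background-subtracted and detrended by Feature Extraction (12.0.3.1 by the file headers, 11.5.1.1 by the submitters' processing notes), with spot flags deposited as other values (0 or 1) and without scaling between arrays. As in the study's methods, intensities were scaled here to a trimmed mean of 2500 (2% left out at each end, factors 3.45 for Villin-Cre and 2.68 for EP4 cKO). Control spots were dropped, as were spots flagged as outliers in at least 1 genotype, and spots of the same probe were averaged. Accessions without version were matched to RefSeq genes of GRCm38.p6 (32989 of 56593 probes, 58.3%). The array's own grid refers to an older build, so only the RefSeq promoter windows carry coordinates.

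The members and the 12 related lists (132 genes) were chosen with earlier results of these data known. Named were all member probes, in each list up to 5 genes past 2-fold with the largest ratios, the brightest gene and defining markers, and the 5 genes most like the brighter Hba-a1 probe; other genes were singled out after their values were seen. Some listed genes are left out of the text. With 1 array per genotype there was no test, and the number of arrays limits the precision. Among 165 probes with 10 usable spots measured on both arrays, log2 ratios of single spots had a median SD of 0.034. Alternatives were other scalings, normexp (offset 50, on the median signal) with quantile normalization, loess (span 0.3), other filters, thresholds and probe choices; scaling to the E1A control spots and keeping outlier spots were added after seeing the data. On simulated data, 100 of 100 probes set 16-fold lower and 100 of 100 set 4-fold higher were recovered among 56593. This checked the calculation only, and does not bear on the spread between mice or on the bounds of dim probes. Python 3.11.15, numpy 2.4.6, pandas 2.3.3, statsmodels 0.14.6, matplotlib 3.10.9, R 4.3.3 and limma 3.58.1 were used.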

Additional observations from a re-analysis of the deposited data

How the results depend on the processing

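All 7 member probes with a value stayed more than 2-fold lower under every scaling, background correction and threshold tried, and the 5 well above background on both arrays did so when the others were left out. The log2 ratios of the hemoglobin probes ranged from -5.88 to -3.18 over all settings, where -5.88 is Hbb-b1 taken at its own EP4 cKO signal, which was not well above background. The member median of -4.74 became -4.58 with scaling to the 75th percentile, -4.60 with a trimmed mean over all spots, -3.70 with the E1A control spots, -3.96 with normexp, and -4.57 with 1 value per globin chain, where 3 values were counted as lower by construction.

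The counts over all probes depended more on the processing. From 2584 lower and 1203 higher they became 750 and 10780 (E1A), 1387 and 2121 (loess), 1635 and 787 (both arrays well above background), 22072 and 2392 (dim probes at their own signal), 1172 and 509 (3-fold) and 5890 and 2600 (1.5-fold), with 754 lower under normexp. Over the related lists, 7 lower and 5 higher genes became 1 and 34 (E1A), 3 and 8 (loess), 34 and 12 (dim probes at their own signal), 4 and 2 (3-fold) and 12 and 12 (1.5-fold), with 1 lower under normexp and 3 higher among genes well above background on both arrays. Their median of 0.00 became 0.86 (E1A), 0.078 (normexp), 0.17 (loess), -0.13 (both arrays well above background) and -0.26 (dim probes at their own signal). Apart from fewer probes or another threshold, the cause was not tested.

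Signal over background limits Hbb-b1 and Alas2 to bounds and leaves Slc4a1 and Gata1 without a fold. No paired analysis was possible because there was 1 array per genotype, and leaving out an array would leave no comparison. Choosing member probes by gene name was not run, since a column of names was not used here.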
